A study of Mus musculus with 9 samples.

Results

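Of the 55487 genes in the deposited expression table, 10 that mark the transmitter type and identity of amacrine cells are described here in the P21 mouse retina: the AP-2 transcription factors Tfap2a, Tfap2b and Tfap2c, the GABA genes Gad1, Gad2 and Slc32a1, the glycine transporter gene Slc6a9, the cholinergic gene Chat, the dopaminergic gene Th and the calcium-binding protein gene Calb2. They were chosen by name as textbook markers of amacrine cells, with earlier results of these data known, by matching the gene symbol in the table. All 10 passed the filter on low values. Amacrine cells are inhibitory interneurons of the inner retina that shape the signals passing from bipolar cells to ganglion cells. Most use either GABA or glycine as their transmitter, and small subsets also release acetylcholine (starburst cells) or dopamine. AP-2 factors are made in postmitotic amacrine cells, and Tfap2a and Tfap2b also in horizontal cells. Several of the other genes are likewise not exclusive to amacrine cells: horizontal cells can make GABA, and calretinin, the product of Calb2, is also found in ganglion cells.

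Whole retinas of C57 BL/6J mice at P21 were compared between 3 genotypes with 3 libraries each, and each library pooled the retinas of 2 animals. Cre- controls, labelled wild type, came from Cre- breeders and carried no Cre transgene. The tHet retinas were heterozygous for floxed Tet1, Tet2 and Tet3, the genes of the dioxygenases that oxidise 5-methylcytosine, and the Tet tcKO retinas were homozygous for all of these floxed alleles. Both carried the Chx10-Cre-GFP transgene, which acts in retinal progenitor cells and is known to be mosaic, and came from in-crossed Cre+ animals. Breeding line and genotype therefore cannot be told apart in a comparison with Cre-, whereas tHet and Tet tcKO share the transgene. The libraries are separate pools of animals, so the spread between them is biological and technical together. In bulk tissue, fewer cells of a type and less RNA per cell cannot be told apart.

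Levels are given as CPM, the reads of a gene scaled to a common total over all genes, and 9627927 to 21108256 reads were counted on genes per library. One library stood apart. In Tet tcKO replicate 3 a single ribosomal RNA gene, CT010467.1, held 28.7% of the reads, against 3.72% in tHet replicate 3 and at most 0.226% in the others, which lowers the CPM of every other gene in that library. Values after TMM scaling, which equalises libraries on the bulk of their genes, or without that gene or library are therefore given beside several results below. The whole-gene level of Tet3 was 99.2 to 152 CPM in Tet tcKO, below the 213 to 268 CPM of Cre- and the 155 to 288 CPM of tHet, with a log2 fold change (log2FC) of −0.99 against Cre- (limma adjusted p = 0.0174), short of a call. Tet1 and Tet2 overlapped between all genotypes, and whole-gene levels include exons that stay after recombination. Retinal identity was evident in every group, with summed rod markers at 33042 to 39484 CPM in Cre-, 28625 to 35480 CPM in tHet and 3312 to 11283 CPM in Tet tcKO.

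RefSeq starts (GRCm38.p6) were on hand for 8 of the 10 genes, at 11 positions. Stretches before the starts of Gad1, Gad2 and Slc6a9 are shown because Gad2 and Slc6a9 had the largest differences of opposite sign in Tet tcKO retinas, Gad1 is the paralog of Gad2, and the TET enzymes act on CpG cytosines. Each is the part of the 250 bases upstream of a start that lies outside all GENCODE M21 exons, with CpG pairs in capitals. DNA methylation was not analysed here.
Gad1, chr2:70561879-70562041, plus strand: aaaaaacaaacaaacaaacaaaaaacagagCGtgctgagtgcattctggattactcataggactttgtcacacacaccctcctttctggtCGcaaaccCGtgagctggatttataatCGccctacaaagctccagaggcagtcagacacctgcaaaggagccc
Gad2, chr2:22622077-22622204, plus strand: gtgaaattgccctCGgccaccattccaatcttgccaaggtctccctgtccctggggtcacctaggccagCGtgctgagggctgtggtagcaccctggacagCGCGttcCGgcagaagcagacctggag
Slc6a9, chr4:117855297-117855491, plus strand: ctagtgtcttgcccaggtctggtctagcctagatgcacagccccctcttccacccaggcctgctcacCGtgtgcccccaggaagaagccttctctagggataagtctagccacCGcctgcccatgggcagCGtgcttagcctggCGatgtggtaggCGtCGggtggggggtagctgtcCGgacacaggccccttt
The Gad2 stretch ends directly before the first annotated exon of the gene, and the Gad1 and Slc6a9 stretches lie in introns of longer transcripts. They hold 4 CpG pairs in 163 bases of Gad1, 5 in 128 bases of Gad2 and 7 in 195 bases of Slc6a9. These counts are of unequal lengths and do not rank the genes. In all 250 bases before the same starts there were 17 in Gad1, 13 in Gad2 and 8 in Slc6a9. Starts of Slc6a9 not shown here held 9 and 10. Over the full 250 bases, 10 of the 11 member starts held more CpG pairs than the median of 6 over 32851 mouse starts, with a range of 5 in Tfap2b to 17 in Gad1. The palindromic letters GCCNNNGGC, an AP-2 recognition motif that reads alike on both strands, occurred only before the start of Gad2 among the 11 member starts (2 matches in 250 bases), and in 13.7% of all starts.

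Compared per length, as CPM per kilobase of exon, the 10 genes covered a wide range in Cre- retinas. Calb2 was highest at 167 ± 48.7 CPM per kilobase (SD, n = 3). It was followed by Tfap2b at 40.4 ± 3.12 and Gad1 at 21.5 ± 3.04 CPM per kilobase. Slc6a9 (11.1 ± 1.77), Gad2 (10.4 ± 1.93) and Tfap2a (10.0 ± 0.785) formed a group in which each overlapped the next in its library range. Tfap2c (5.32 ± 0.566) and Slc32a1 (5.14 ± 0.212) also overlapped. Chat reached 2.54 ± 0.663 and Th 0.731 ± 0.0692 CPM per kilobase, the lowest of the set, with 14 to 65 reads of Th per library.

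The 10 genes did not shift together in Tet tcKO retinas. Slc6a9 fell against both control genotypes, and it alone passed the call used for all genes, an absolute log2FC of at least 1 with an adjusted p under 0.01 by limma on log2(CPM + 0.5). That is 1 of 10 genes in Tet tcKO versus Cre-, where 3.6% of the 21330 tested genes were called, and 1 of 10 in Tet tcKO versus tHet, where 3.0% were called. Tfap2c and Calb2 were also lower in every Tet tcKO library than in every control library, and Gad2 had positive log2FC in both comparisons. The median log2FC of the 10 genes was −0.21 against Cre- and 0.25 against tHet, beside 0.001245 and −0.06 over all tested genes. The Tet tcKO libraries are shared by these comparisons. Over all genes the calls were 434 higher and 334 lower against Cre-, and 297 higher and 343 lower against tHet. With CT010467.1 left out of the totals they were 607 higher and 221 lower, and 424 higher and 215 lower, and the median over all genes moved to 0.14 and 0.07. In tHet versus Cre- no gene of the set was called (0 of 10 by limma, edgeR and DESeq2, with a limma adjusted p of 0.9998 for each), with 1 of the 10 at an unadjusted p under 0.05, and 0.0422% of all tested genes were called.

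In CPM, the 3 Tet tcKO libraries did not overlap the 3 Cre- libraries for 4 of the 10 genes, 3 below (Tfap2c, Slc6a9 and Calb2) and 1 above (Th), against 19.6% of all tested genes. They did not overlap tHet for 3 of the 10 genes, the same 3 that were below Cre-, against 17.0% of tested genes. After TMM scaling these counts were 5 of 10 against Cre- (27.5% of tested genes) and 7 of 10 against tHet (26.8%), because Gad2 then lay above Cre-, and Tfap2a, Tfap2b, Gad2 and Slc32a1 lay above tHet. In tHet versus Cre-, 2 of the 10 genes did not overlap (Tfap2a and Slc32a1, both lower in tHet), against 11.1% of tested genes, and after TMM scaling 1 of 10 (Slc32a1), against 12.4%. An exact two-sided permutation test of 3 libraries against 3 cannot go below p = 0.1.

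**Figure D1:**
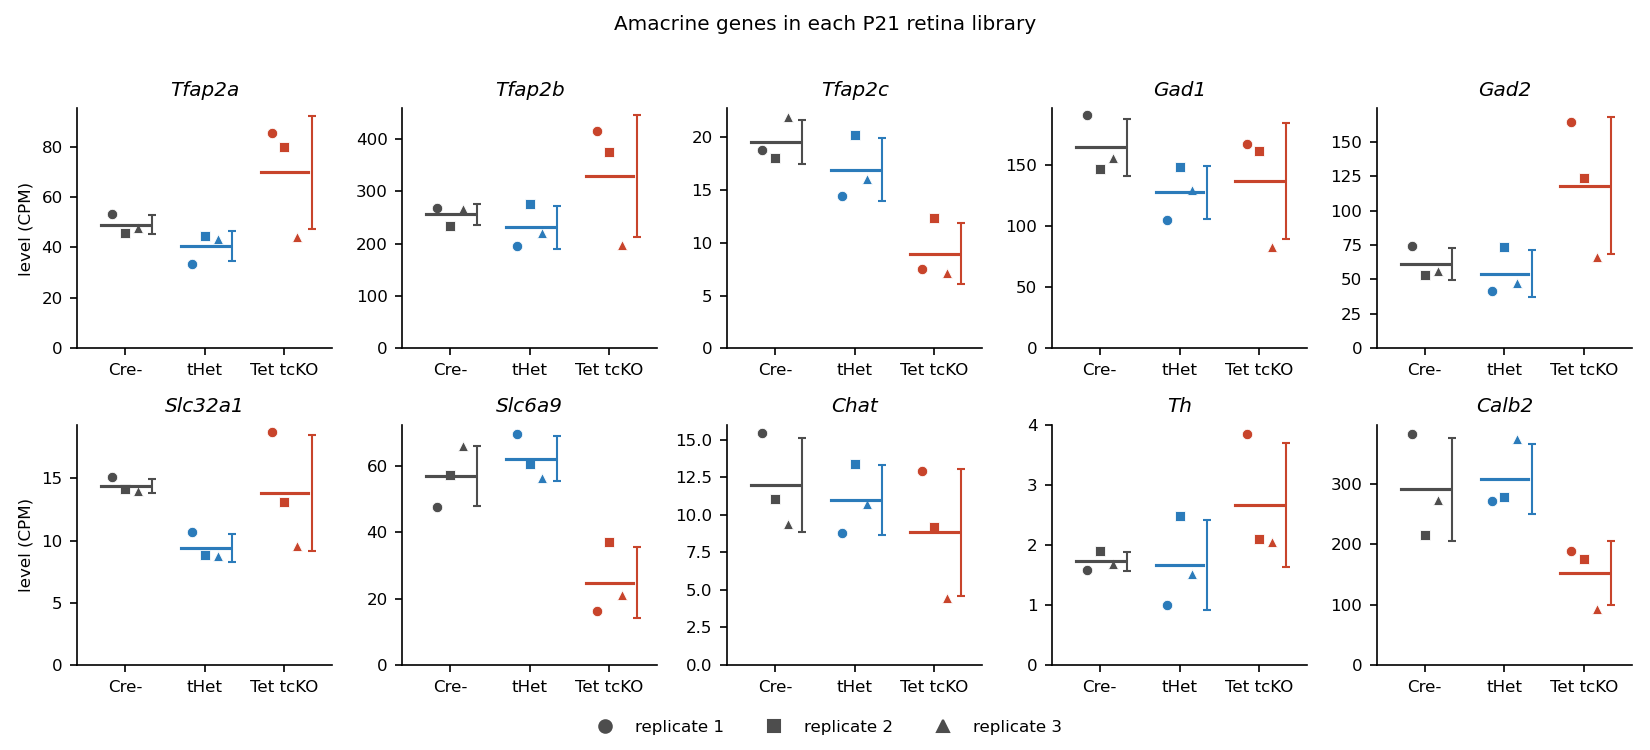
Level of each of the 10 genes in CPM (y axis, from 0) in each library of the 3 genotypes (x axis), with the marker shape giving the replicate number, horizontal lines the mean and bars the SD over 3 libraries. All Tet tcKO points for Tfap2c, Slc6a9 and Calb2 sit below all control points, and Tet tcKO replicate 3, where CT010467.1 held 28.7% of reads, is the lowest Tet tcKO point in every panel but Slc6a9.

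Among the AP-2 factors, Tfap2c differed from its paralogs. Tfap2c (ENSMUSG00000028640.11, chr2:172549593-172558622 in GRCm38), which marks a subset of amacrine cells, was at 18.8, 18.0 and 21.9 CPM in Cre- replicates 1 to 3, at 14.5, 20.3 and 16.01 CPM in tHet, and at 7.54, 12.3 and 7.11 CPM in Tet tcKO. All Tet tcKO libraries lay below all 6 control libraries. Its log2FC was −1.12 against Cre- (SE 0.262), with a limma adjusted p of 0.0102 that narrowly missed the threshold, and −0.90 against tHet (SE 0.262, limma adjusted p = 0.0448). After TMM scaling Tfap2c was called against Cre- (log2FC −1.11, limma adjusted p = 0.0036), as it was by edgeR on the recovered reads (adjusted p = 0.00402). In all, it passed in 12 of 24 settings (the reported one and 23 alternatives) against Cre- and in 0 of 24 against tHet.

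Tfap2a (ENSMUSG00000021359.16, chr13:40715302-40738376), needed for amacrine and horizontal cell development together with Tfap2b, was at 53.3, 45.9 and 47.8 CPM in Cre-, at 33.6, 44.5 and 43.4 CPM in tHet, and at 85.4, 79.8 and 44.1 CPM in Tet tcKO. Replicates 1 and 2 of Tet tcKO were above every control library, while replicate 3 was among the controls. Its log2FC was 0.45 against Cre- (SE 0.243, limma adjusted p = 0.401) and 0.73 against tHet (SE 0.243, limma adjusted p = 0.089). With CT010467.1 left out of the library totals, replicate 3 was at 61.9 CPM, above all controls, and the log2FC was 0.61 against Cre- (limma adjusted p = 0.0341) and 0.87 against tHet (limma adjusted p = 0.0061), both under 1. Without Tet tcKO replicate 3, Tfap2a was called against tHet (log2FC 1.03, limma adjusted p = 0.00654) but not against Cre- (log2FC 0.75, limma adjusted p = 0.0246). Exons of Gm26688, Gm47061 and Gm47067 overlap Tfap2a on the other strand over 380, 265 and 73 bp, and the strand setting of the counting is not given in the sources used here.

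Tfap2b (ENSMUSG00000025927.13, chr1:19208914-19238576) was at 268, 233 and 267 CPM in Cre-, at 196, 275 and 221 CPM in tHet, and at 416, 374 and 197 CPM in Tet tcKO, the same arrangement as Tfap2a with replicate 3 within the control range. Its log2FC was 0.29 against Cre- (SE 0.260, limma adjusted p = 0.731) and 0.45 against tHet (SE 0.260, limma adjusted p = 0.403). With CT010467.1 left out of the totals, replicate 3 was at 276 CPM, just above the highest control (275 CPM, tHet replicate 2). Without Tet tcKO replicate 3 the log2FC was 0.62 against Cre- (limma adjusted p = 0.0626) and 0.79 against tHet (limma adjusted p = 0.0284), neither a call. The paralogs Tfap2d and Tfap2e were at 7.20 ± 1.80 and 2.10 ± 0.431 CPM in Cre- (SD, n = 3), with log2FC of 0.24 and 0.12 in Tet tcKO versus Cre- (limma adjusted p = 0.863 and 0.952).

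The GABA genes did not move as a unit. Gad2 (ENSMUSG00000026787.3, chr2:22622205-22693874) encodes the GAD65 form of glutamate decarboxylase, largely held at synaptic terminals. It was at 74.2, 53.3 and 56.1 CPM in Cre-, at 41.9, 73.4 and 47.1 CPM in tHet, and at 164, 124 and 66.1 CPM in Tet tcKO. Tet tcKO replicates 1 and 2 exceeded every control library and replicate 3 fell inside their range. The log2FC was 0.86 against Cre- (SE 0.287, limma adjusted p = 0.0852) and 1.06 against tHet (SE 0.287, limma adjusted p = 0.0289), neither a call. After TMM scaling all 3 Tet tcKO libraries (155, 108 and 84.9) exceeded all controls, the highest of which was 82.4, and the adjusted p values were 0.0464 and 0.0139. Against tHet, Gad2 was called in 5 of 24 settings, among them without CT010467.1 (log2FC 1.21, limma adjusted p = 0.00822) and without Tet tcKO replicate 3 (log2FC 1.43, limma adjusted p = 0.00884).

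Gad1 (ENSMUSG00000070880.10, chr2:70553072-70602014), which encodes the GAD67 form that supplies most cellular GABA, was at 190, 147 and 155 CPM in Cre-, at 105, 148 and 129 CPM in tHet, and at 167, 161 and 82.4 CPM in Tet tcKO. The genotypes overlapped. Its log2FC of −0.32 against Cre- (SE 0.255, limma adjusted p = 0.676) and 0.05 against tHet (limma adjusted p = 0.954) had 95% intervals of −0.85 to 0.21 and −0.48 to 0.58.

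Slc32a1 (ENSMUSG00000037771.11, chr2:158610767-158615748), the vesicular transporter that loads GABA and glycine into synaptic vesicles and so serves both inhibitory systems, was at 15.1, 14.1 and 14.0 CPM in Cre-, at 10.7, 8.83 and 8.72 CPM in tHet, and at 18.8, 13.1 and 9.57 CPM in Tet tcKO. Tet tcKO overlapped both controls, with a log2FC of −0.11 against Cre- (95% interval −0.66 to 0.45, limma adjusted p = 0.943) and 0.49 against tHet (limma adjusted p = 0.375). All tHet libraries were below all Cre- libraries, at a log2FC of −0.59 (SE 0.268, limma adjusted p = 0.9998). An exon of Gm14205 overlaps Slc32a1 on the other strand over 697 bp.

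Slc6a9 (ENSMUSG00000028542.17, chr4:117834506-117875198) encodes GlyT1, the plasma membrane transporter that fills glycinergic amacrine cells with glycine. It was at 47.7, 57.2 and 66.0 CPM in Cre-, at 69.6, 60.6 and 56.4 CPM in tHet, and at 16.4, 37.0 and 21.1 CPM in Tet tcKO. Every Tet tcKO library was below every control library on all 3 scales (CPM, TMM-scaled and without CT010467.1). Slc6a9 fell by 1.25 on the log2 scale against Cre- (SE 0.257, limma adjusted p = 0.00356) and by 1.39 against tHet (SE 0.257, limma adjusted p = 0.00175). The call held in 18 of 24 settings against Cre- and 19 of 24 against tHet. The sign was negative in all, though several settings could not change it by design. Against Cre- it was lost without CT010467.1 (log2FC −1.09, adjusted p = 0.0139), without Cre- replicate 3 (−1.14, adjusted p = 0.0323), without Tet tcKO replicate 1 (−1.003, adjusted p = 0.0395), without Tet tcKO replicate 3 (−1.18, adjusted p = 0.0355) and with no filter on low values (−1.25, adjusted p = 0.0169), all by limma. Against tHet it was lost without tHet replicate 1 (−1.30, limma adjusted p = 0.0147), Tet tcKO replicate 1 (−1.14, limma adjusted p = 0.0221) or Tet tcKO replicate 3 (−1.31, limma adjusted p = 0.0264), and with no filter on low values (−1.39, limma adjusted p = 0.0101). It was also lost under TMM scaling without Tet tcKO replicate 3, a setting chosen after seeing the data, at −1.33 against Cre- (limma adjusted p = 0.0131) and −1.41 against tHet (limma adjusted p = 0.011). Exons of Ccdc24, Gm17114 and B4galt2 overlap Slc6a9 on the other strand over 1429, 511 and 46 bp.

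The second glycine transporter gene, Slc6a5, encodes GlyT2, used by glycinergic neurons elsewhere in the nervous system. Its mean was 18.1 ± 2.17 CPM for Cre-, 12.4 ± 3.61 for tHet and 8.25 ± 2.92 for Tet tcKO (SD, n = 3). Against Cre- the log2FC was −1.13 (SE 0.284, limma adjusted p = 0.0166), not a call, though after TMM scaling Slc6a5 was called lower. It was −0.57 in Tet tcKO versus tHet (limma adjusted p = 0.309) and −0.56 in tHet versus Cre- (limma adjusted p = 0.9998).

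Calb2 (ENSMUSG00000003657.9, chr8:110137502-110168210) encodes calretinin, a calcium-binding protein of AII and other amacrine cells. It was at 383, 216 and 274 CPM in Cre-, at 272, 277 and 374 CPM in tHet, and at 189, 175 and 92.2 CPM in Tet tcKO, with every Tet tcKO library below every control library. Its log2FC was −0.96 against Cre- (SE 0.276, limma adjusted p = 0.0397) and −1.07 against tHet (SE 0.276, limma adjusted p = 0.0229). Neither passed, although DESeq2 called both (log2FC −1.01 and −1.03, adjusted p = 0.00954 and 0.0089). Without Tet tcKO replicate 3 the log2FC against Cre- was −0.63 (limma adjusted p = 0.16).

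Chat (ENSMUSG00000021919.8, chr14:32408203-32465989), choline acetyltransferase of starburst amacrine cells, was at 15.4, 11.1 and 9.38 CPM in Cre-, at 8.79, 13.4 and 10.7 CPM in tHet, and at 12.9, 9.16 and 4.46 CPM in Tet tcKO. The genotypes overlapped, with a log2FC of −0.50 against Cre- (95% interval −1.19 to 0.19, limma adjusted p = 0.548) and −0.39 against tHet (limma adjusted p = 0.619). Without Tet tcKO replicate 3 these were −0.10 and 0.01.

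Th (ENSMUSG00000000214.11, chr7:142892752-142931128), tyrosine hydroxylase, the rate-limiting enzyme of dopamine synthesis in a sparse amacrine type, was at 1.59, 1.91 and 1.69 CPM in Cre-, at 1.01, 2.49 and 1.52 CPM in tHet, and at 3.86, 2.11 and 2.05 CPM in Tet tcKO. All Tet tcKO libraries were above Cre- but not above tHet. The log2FC was 0.47 against Cre- (SE 0.35, limma adjusted p = 0.639) and 0.56 against tHet (limma adjusted p = 0.462), and at 14 to 65 reads per library its 95% interval against Cre-, −0.26 to 1.19, was the widest of the 10.

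**Figure D2:**
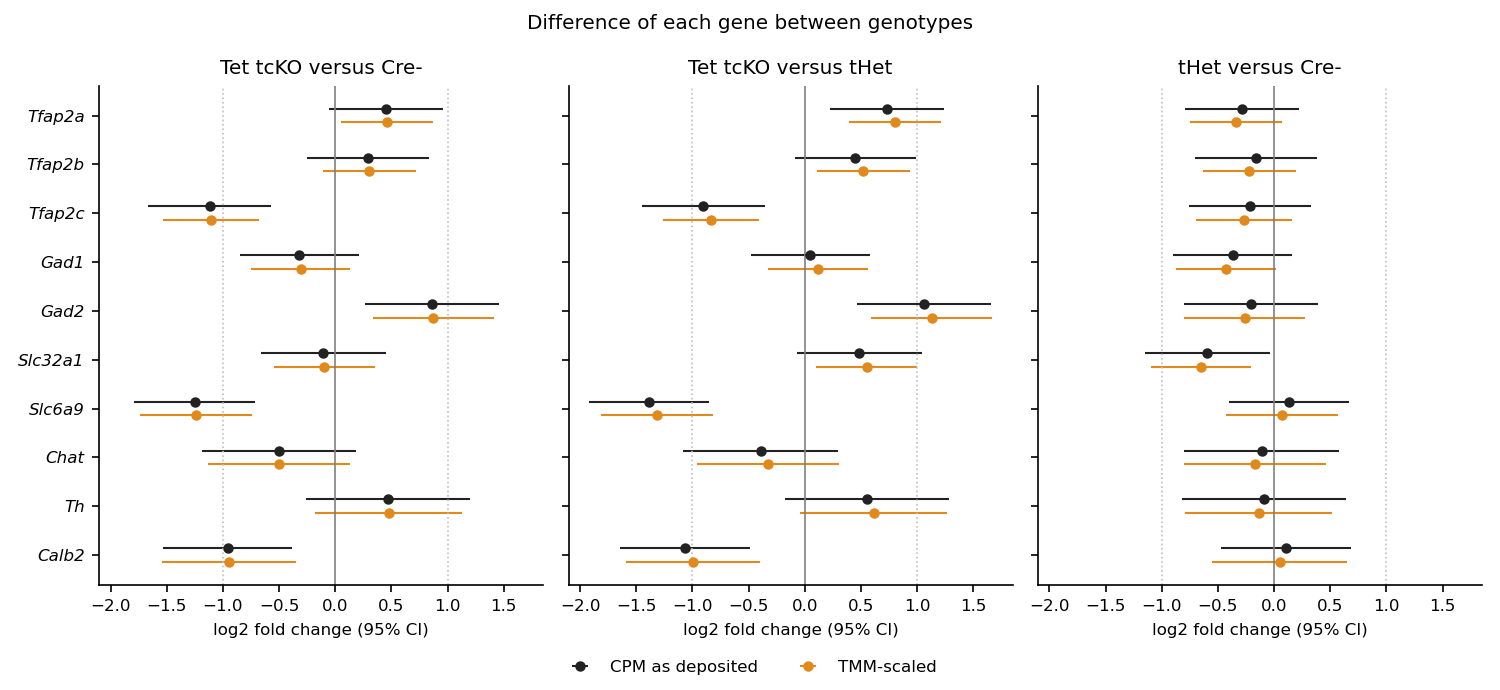
Log2 fold change of each gene (x axis, point with 95% confidence interval from limma) in the 3 comparisons, on CPM as deposited and after TMM scaling, with dotted lines at an absolute log2FC of 1. Slc6a9, Tfap2c and Calb2 lie left of 0 and Gad2 right of it in both Tet tcKO comparisons, with intervals that exclude 0 on both scales. In tHet versus Cre- the interval excludes 0 for Slc32a1 alone.

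Ratios of plain CPM between 2 genes of the same library do not depend on how libraries are scaled. The pair counts in this paragraph were made after adding the same constant to each CPM as in the limma fits. These counts can therefore depend on scaling, most for genes of low CPM such as Th, and can differ from counts on plain CPM ratios. Over all 45 pairs of the 10 genes, the ratio did not overlap between Tet tcKO and Cre- in 31 pairs (68.9%), beside 30.0% over all pairs of tested genes. It did not overlap between Tet tcKO and tHet in 32 pairs (71.1%), beside 28.5%, and between tHet and Cre- in 2 pairs (4.44%), beside 12.7%. Pairs share genes and are not independent, so these shares are descriptions without a test. The shares over all pairs include genes down to the filter of 0.5 CPM and were not matched for level. The ratios below are of plain CPM and were picked after their values were seen.

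The ratio of Gad2 to Gad1 was 0.390, 0.364 and 0.362 in Cre-, 0.399, 0.497 and 0.364 in tHet, and 0.984, 0.767 and 0.802 in Tet tcKO. Replicate 3 of Tet tcKO, low in CPM for both genes, thus lay with the other Tet tcKO libraries in the balance between them. Tfap2c to Tfap2a was 0.352, 0.392 and 0.459 in Cre-, 0.431, 0.456 and 0.369 in tHet, and 0.0883, 0.154 and 0.161 in Tet tcKO. Slc6a9 to Gad2, a glycine gene over a GABA gene, was 0.644, 1.07 and 1.18 in Cre-, 1.66, 0.825 and 1.20 in tHet, and 0.0997, 0.299 and 0.319 in Tet tcKO. Calb2 to Tfap2a was 7.18, 4.70 and 5.72 in Cre-, 8.10, 6.24 and 8.63 in tHet, and 2.21, 2.20 and 2.09 in Tet tcKO. None of these 4 ratios overlapped between Tet tcKO and either control, but they were picked with their values seen, so this is no test. Of further ratios computed, Tfap2b to Tfap2a, Chat to Tfap2a and Slc6a9 to Slc32a1 did not overlap with either control. Slc32a1 to Gad1 did overlap, at 0.0813 to 0.116 in Tet tcKO and 0.0792 to 0.0964 in Cre-. Th to Tfap2a also overlapped, at 0.0264 to 0.0464 in Tet tcKO and 0.0298 to 0.0416 in Cre-.

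**Figure D3:**
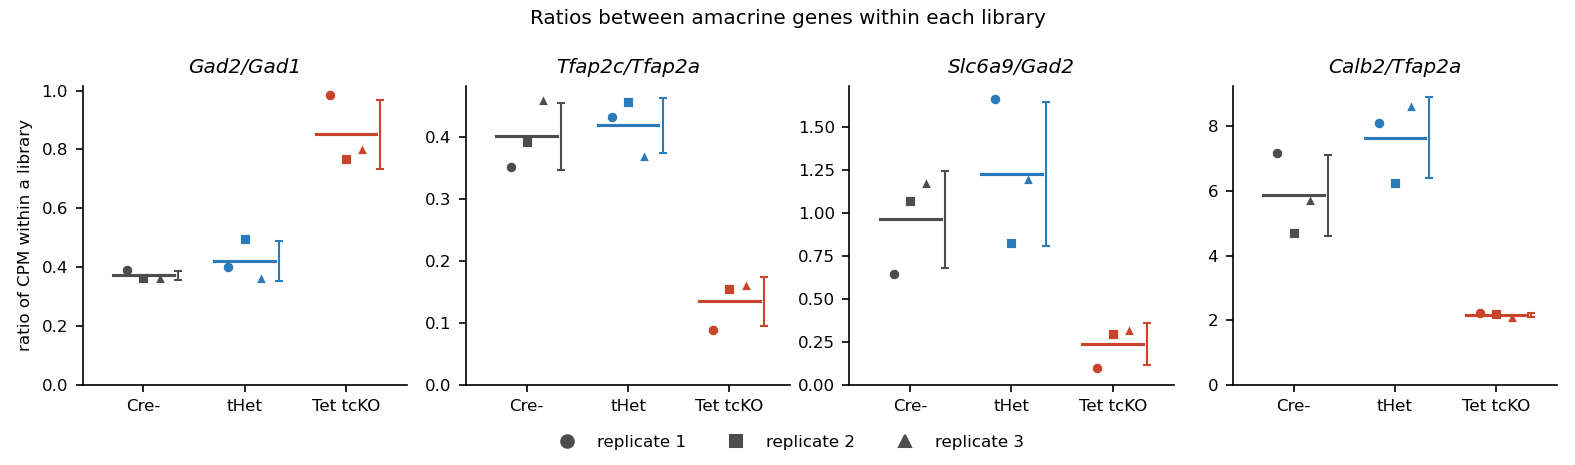
Ratio of the CPM of 2 amacrine genes within each library (y axis, from 0) by genotype (x axis), with means as lines and SD over 3 libraries as bars. In Tet tcKO the Gad2 to Gad1 ratio lies at 0.767 or above, against at most 0.497 in the controls, and the other 3 ratios lie below all controls.

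Further amacrine genes showed differences in both directions. Of 19 amacrine transcription factor genes 17 were tested, and 1 was called against Cre- and 0 against tHet by limma (5 at an unadjusted p under 0.05, 0 called by edgeR and 1 by DESeq2). Prox1, a homeobox gene of AII amacrine cells that bipolar, horizontal and Müller cells also use, fell in Tet tcKO, where it averaged 126 ± 59.1 CPM, from 301.4 ± 28.3 CPM in Cre- (log2FC −1.35, SE 0.262, limma adjusted p = 0.00229). The log2FC of Prox1 against tHet was −1.02 (limma adjusted p = 0.0213), not a call. Of the factors uncalled against Cre-, Lhx9 had a log2FC of 0.87, Ebf1 −0.70 and Neurod6 −1.18 against Cre- (limma adjusted p = 0.0577, 0.082 and 0.0825). The median over the tested factors was 0.02 against Cre- and 0.05 against tHet.

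Of 15 further genes of transmitter synthesis, packaging and uptake 12 were tested, and limma called 0 against Cre- (5 at an unadjusted p under 0.05, 1 called by edgeR and 1 by DESeq2) and 1 against tHet. Ache, the enzyme that breaks down acetylcholine, averaged 23.0 ± 0.590 CPM for Cre-, 20.9 ± 0.829 for tHet and 45.6 ± 5.44 for Tet tcKO (SD, n = 3). It rose against tHet (log2FC 1.10, SE 0.210, limma adjusted p = 0.00218), and against Cre- its log2FC of 0.97 (limma adjusted p = 0.00565) was short of 1. Its cholinergic neighbours Slc5a7, the choline transporter, and Slc18a3, the vesicular acetylcholine transporter that lies within the Chat locus, had log2FC of 0.75 and 0.01 against Cre- (limma adjusted p = 0.235 and 0.998). Slc6a11, a GABA transporter gene, had a log2FC of −0.54 (limma adjusted p = 0.196), and Slc17a8, a vesicular glutamate transporter of certain amacrine cells, 0.47 (limma adjusted p = 0.305). Slc6a13, another GABA transporter gene, averaged 2.26 ± 1.54 CPM for Cre-, 7.05 ± 2.10 for tHet and 2.03 ± 0.991 for Tet tcKO (SD, n = 3). Against Cre-, Tet tcKO had a log2FC of −0.05 for this gene (limma adjusted p = 0.988), with −1.61 against tHet (limma adjusted p = 0.016) and 1.56 in tHet versus Cre- (limma adjusted p = 0.275), none of them a call. The list's median was 0.02 against Cre- and 0.14 against tHet.

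All 11 genes of amacrine neuropeptides and modulators were tested, with 2 called higher and 3 called lower against Cre-, and 1 called higher against tHet. Penk, the enkephalin precursor, rose in Tet tcKO to 91.7 ± 11.3 CPM, from 21.3 ± 3.33 CPM in Cre- (log2FC 2.08, limma adjusted p = 0.000392). In tHet it ranged widely at 50.8 ± 32.2 CPM. Its log2FC was 1.06 in Tet tcKO versus tHet (limma adjusted p = 0.0702) and 1.02 in tHet versus Cre- (limma adjusted p = 0.831), neither a call. C1ql3, a secreted synaptic protein, rose against both controls (log2FC 1.53 and 1.91, limma adjusted p = 0.004 and 0.000647). Exons of Gm37811 overlap C1ql3 on the other strand over 1547 of its 2535 exon bp, and the strand setting of the counting is not given. Vip, a neuropeptide of VIP amacrine cells, fell by 2.16 on the log2 scale against Cre- (limma adjusted p = 0.004), from 8.98 ± 1.52 to 2.22 ± 2.27 CPM, but under TMM scaling it was not called (adjusted p = 0.0162). Nos1, neuronal nitric oxide synthase, and C1ql1 fell by 1.30 and 1.34 against Cre- (limma adjusted p = 0.0057 and 0.00493). Against tHet the log2FC was −1.84 for Vip, −1.14 for Nos1 and −0.82 for C1ql1 (limma adjusted p = 0.0157, 0.0179 and 0.11), none a call. The list's median was −0.27 against Cre- and 0.23 against tHet.

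All 7 amacrine subtype genes were tested, with 2 called lower against Cre- and 1 against tHet. Pvalb, parvalbumin, fell by 2.11 on the log2 scale against Cre- and by 1.83 against tHet (limma adjusted p = 0.00278 and 0.00997), calls that TMM scaling ended (adjusted p = 0.0106 and 0.0289). Gjd2, connexin 36 of AII gap junctions, which bipolar cells and photoreceptors also use, fell from 73.2 ± 6.72 to 35.9 ± 8.10 CPM (log2FC −1.04, limma adjusted p = 0.00367). This was the comparison with Cre-, and against tHet the log2FC of Gjd2 was −0.76 (limma adjusted p = 0.0383), not a call. Slc35d3 and Calb1 had log2FC of −1.20 and −0.62 against Cre- (limma adjusted p = 0.0762 and 0.284). Megf10, a starburst cell adhesion gene, was at 0.16 (limma adjusted p = 0.895). The list's median was −0.62 in both comparisons.

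**Figure D4:**
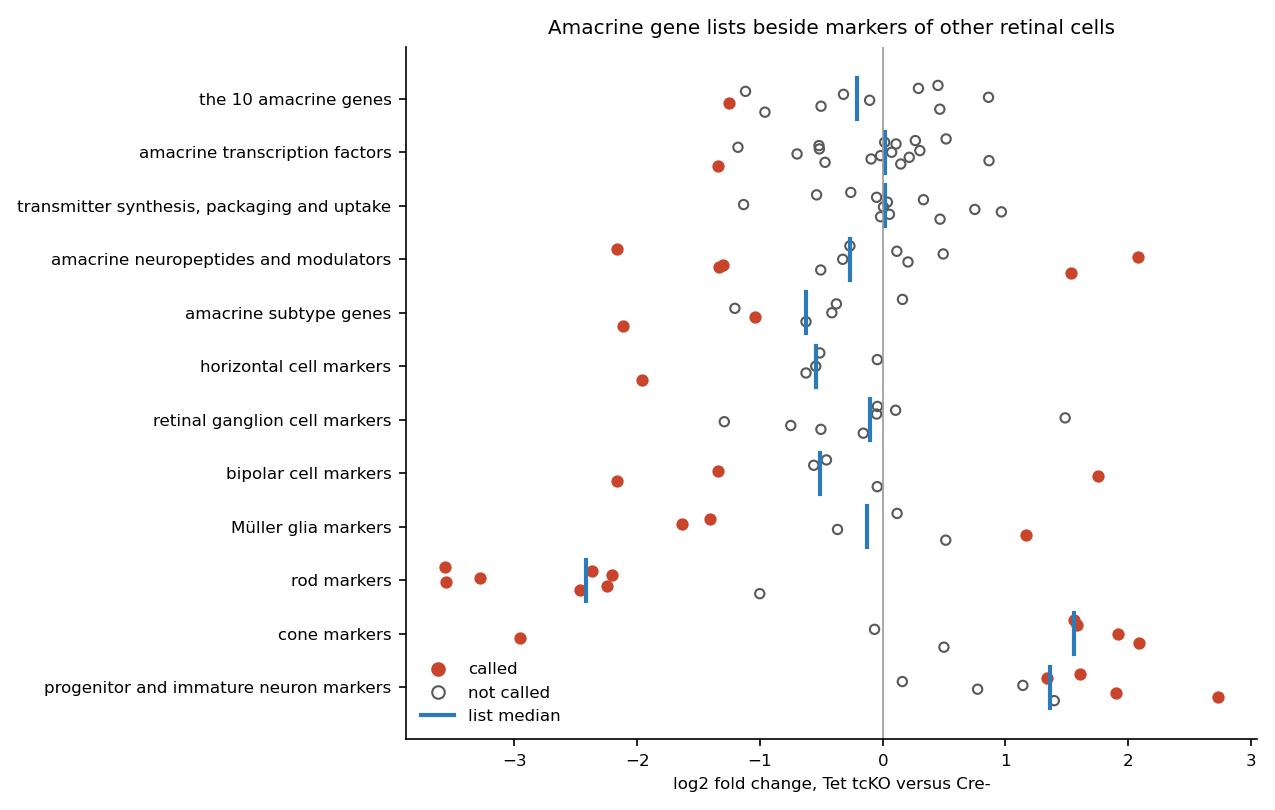
Log2 fold change in Tet tcKO versus Cre- (x axis) of every tested gene in the amacrine lists and in marker lists of other retinal cells (rows), with filled points for called genes, open points for the rest and a vertical bar at each list's median. The 10 amacrine genes spread from −1.25 to 0.86, whereas rod markers have a median of −2.42 and cone markers of 1.56.

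Markers of other retinal cells also differed between genotypes, and their part in the results above was not tested. Rod markers were called lower in 7 of 8 against both controls, and cone markers higher in 4 and lower in 1 of 7. With TMM scaling the rod count was 7 against Cre- and 6 against tHet, and the cone counts were unchanged. With rod and cone markers left out of the library totals, Slc6a9 kept its call against Cre- (log2FC −1.30, limma adjusted p = 0.00287). Of the 5 horizontal cell markers 1 (Gja10) was called lower against Cre- and 0 against tHet by limma (2 at an unadjusted p under 0.05, 0 called by edgeR and 1 by DESeq2), and their summed level was 95.1 to 180 CPM in Cre-, 109 to 145 CPM in tHet and 56.6 to 118 CPM in Tet tcKO. Of the 8 ganglion cell markers limma called 0 against Cre- (3 at an unadjusted p under 0.05, 0 called by edgeR and 2 by DESeq2) and 1 (Sncg) lower against tHet, or 0 after TMM scaling. Their sum was 985 to 1481, 1054 to 2362 and 655 to 1031 CPM in the same order. Single genes dominated both sums. In Cre-, Nefl averaged 831 CPM of a mean ganglion sum of 1315 CPM. Calb1, also among the amacrine subtype genes, averaged 95.6 CPM of a mean horizontal sum of 136 CPM. Against Cre-, 6 of the 8 ganglion markers had negative and 2 positive log2FC, with a median of −0.10. All 5 horizontal markers had negative log2FC. No marker of these 4 lists was at 0 in all libraries of a genotype.

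Bipolar markers had 1 called higher (Cabp5) and 2 lower (Trpm1 and Prkca) of 6 against Cre-, and 1 higher (Cabp5) against tHet. Müller glia markers had 1 higher (Apoe) and 2 lower (Glul and Rlbp1) of 6 against both controls. Progenitor and immature neuron markers had 4 of 8 tested called higher against Cre- (Top2a, Mki67, Sox11 and Sox4) and 1 (Sox11) against tHet. Exons of Gm26735 overlap Sox4 on the other strand over 2616 of its 4795 exon bp. Microglia markers had 1 of 5 (Cx3cr1) called higher against Cre- and 0 against tHet (2 at an unadjusted p under 0.05, 0 by edgeR and DESeq2). Endothelial markers had 0 of 4 called in both (3 and 2 at an unadjusted p under 0.05) and lens markers 0 of 3 (3 and 0), with 0 by edgeR and DESeq2. The pigment epithelium and ciliary body list had 2 higher (Optc and Wfdc1) and 1 lower (Rpe65) of 5 against Cre-, and 2 lower (Rpe65 and Ttr) against tHet. Optc was also called higher in tHet versus Cre- (log2FC 3.91, limma adjusted p = 0.000311). Several of these calls depended on scaling. After TMM scaling, Müller glia markers had 0 higher and 2 lower against both controls. Bipolar markers then had 1 higher and 1 lower against both. Microglia markers had 0 called against Cre-, and 3 progenitor markers were called higher against tHet. The pigment epithelium and ciliary body list had 2 higher and 0 lower against Cre-, 1 lower against tHet, and 0 called in tHet versus Cre-.

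The closest matches of the 10 genes over the 9 libraries are given here as Pearson correlations of log2(CPM + 0.5). They carry no test, since the points share genotype and library scaling, including the lowered CPM of Tet tcKO replicate 3. Each r is among the highest over the genes searched, which favours high values. Tfap2a was most like Gad2 (r = 0.947) and Tfap2b most like Tfap2a (r = 0.938). Slc6a9 and Tfap2c were each other's closest (r = 0.915), and Calb2 was closest to Tfap2c (r = 0.776). Gad1 and Chat were each other's closest (r = 0.863), Th was closest to Gad2 (r = 0.839), and Slc32a1 had the weakest best match, Tfap2a (r = 0.670). Among 17429 tested genes with a mean of at least 1 CPM, the most alike to Slc6a9 were Rgs3, B930025P03Rik and Tle6 (r = 0.986 to 0.989), and to Gad2 Klhl42, Add2 and Pcdh19 (r = 0.985 to 0.990). For Tfap2a they were Tcaf1, Dpp6 and Ets2 (r = 0.985 to 0.990), for Tfap2b Mgat5b, Pygo1 and Gatd3a (r = 0.983 to 0.986), and for Gad1 Slc2a13, Enpp5 and Slc7a14 (r = 0.980 to 0.984). For Slc32a1 they were Ddx54, Minpp1 and Snx5 (r = 0.967 to 0.976), for Calb2 Trarg1, Lmo1 and Tbc1d1 (r = 0.957 to 0.979), and for Th Dtx3l, Slc29a3 and Scn3a (r = 0.922 to 0.943).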

How the data were processed

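RNA from P21 retinas was depleted of ribosomal RNA and made into stranded libraries by the authors. Per the labels and the study's methods, reads were trimmed (Trim Galore 0.6.7), aligned to mm10 (STAR 2.7.0f) and counted on genes (HTSeq 0.11.2). The annotation release and the strand setting of the counting are not given in the sources used here. The authors deposited CPM divided by each library's total with no further factor, and this table also holds fold changes with their p-values from comparisons run by the study, which were not used. Each CPM above 0 equalled a whole number of reads within 0.1 (100% of values), so reads were recovered, and a single read was worth 0.0474 to 0.104 CPM. Depth limits low values, and reads carry no molecular identifiers.

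A gene was tested if 3 or more of the 9 libraries reached 0.5 CPM (21330 genes), on log2(CPM + 0.5) with limma 3.58.1 (R 4.3.3) with an intensity trend, 1 mean per genotype, all 9 libraries and Benjamini-Hochberg adjustment over all tested genes. A call required an adjusted p under 0.01 together with an absolute log2FC of 1 or more, thresholds taken from the study's methods. Standard errors (SE) and 95% intervals come from that fit, and SD is over 3 libraries. Alternatives were other pseudocounts (0.1 and 1), filters, scalings and thresholds, edgeR 4.0.16 quasi-likelihood and DESeq2 1.42.0 on the recovered reads, a replicate block, only the 6 libraries compared, and leaving out each library. The fits were run on simulated data with 200 genes changed by a log2FC of 2 in either direction in Tet tcKO. In Tet tcKO versus Cre-, limma recovered 169, edgeR 172 and DESeq2 162 of these, with 0 false calls. That simulation gave all genes the same dispersion and all libraries the same composition apart from the changed genes. It therefore does not cover the share of CT010467.1 in Tet tcKO replicate 3. Positions, exon lengths and overlaps come from GENCODE M21 on GRCm38. Figures were drawn with matplotlib 3.10.9.

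The 10 genes and the further lists were chosen with earlier results of these data known. All 10 are named with every library, and of the amacrine lists every called gene and up to 4 genes a comparison with the smallest adjusted p. Other cell type lists are given by counts, with sums for the rod, horizontal and ganglion cell lists only. Called genes are named for all of these but the rod and cone lists. The 3 genes of highest Pearson r are named for 8 of the 10, and those for Tfap2c and Chat are not reported here. CT010467.1 was singled out after its values were seen. Group labels give the same replicate numbers 1 to 3 to each genotype.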

Additional observations from a re-analysis of the deposited data

How the results depend on the processing

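The direction of all 10 genes in the 3 comparisons was recomputed in 23 other settings, 690 results in all, of which 644 kept their sign and their side of the threshold, 23 gained a call, 11 lost a call and 12 changed sign. In several settings the log2FC equals the reported one by design, so only the adjusted p could change. These are the other filters, the replicate block, only the 6 libraries, and leaving out a library of the genotype not compared. Their unchanged signs are no evidence of stability. Slc6a9 and Tfap2c kept a negative sign in both Tet tcKO comparisons throughout, and Gad2 a positive sign. The cause of the sign changes was not tested. Slc32a1 in Tet tcKO versus Cre- was at 0.049 without CT010467.1. Leaving out 1 library at a time, log2FC against Cre- ran from −0.50 to 0.011 for Gad1 and from −0.35 to 0.12 for Slc32a1. Against tHet it ran from −0.13 to 0.38 for Gad1 and from −0.71 to 0.0079 for Chat. In tHet versus Cre- it ran from −0.26 to 0.081 for Chat, −0.35 to 0.14 for Th and −0.088 to 0.33 for Calb2.

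Of the 10 genes, 1 was called against Cre- as reported. The number was 2 at an adjusted p under 0.05, with a filter of at least 1 CPM, under upper-quartile and TMM scaling, without rod and cone markers in the totals, by edgeR, with the replicate block and with only the 6 libraries, 3 by DESeq2, and 0 with no filter and without CT010467.1. It ran from 0 to 2 leaving out 1 library. Against tHet, 1 was called as reported. The number was 3 at an adjusted p under 0.05, by DESeq2, with the replicate block and with only the 6 libraries, 2 without CT010467.1, 0 with no filter, and 0 to 2 leaving out 1 library. Chosen after seeing the data, TMM scaling without Tet tcKO replicate 3 gave 0 in both, and TMM scaling with the replicate block gave 2 against Cre-.

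Over all genes, 768 were called against Cre-, with 1156 at an adjusted p under 0.05, 417 with no filter, 470 under TMM scaling without Tet tcKO replicate 3, and 360 to 976 leaving out 1 library. Against tHet 640 were called, with 1104 at an adjusted p under 0.05, 351 with no filter, 1046 by DESeq2, 1125 with the replicate block, 1013 with only the 6 libraries, 408 under TMM scaling without Tet tcKO replicate 3, and 287 to 959 leaving out 1 library. In tHet versus Cre- 9 were called, with 20 at an adjusted p under 0.05, 40 by DESeq2, 40 with the replicate block, 2 under TMM scaling with the replicate block, 0 to 17 leaving out 1 library, and 1 with no filter, under upper-quartile, TMM and TMM scaling without Tet tcKO replicate 3, without CT010467.1, by edgeR and with only the 6 libraries.

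Replicate numbers were not taken to pair the samples, since pairing was to be used only if every pair of the same number correlated above 0.1. Libraries of the same number correlated at −0.35 to 0.56 in their deviations from the group means, above 0.1 in 5 of 9 pairs. The mean r was 0.11 for the same number and −0.05 for different numbers. Whether libraries of the same number share a batch was not tested. With the replicate block 1127 genes were called against Cre- instead of 768, and 856 instead of 803 under TMM scaling. Depth limits Th, at 14 to 65 reads per library.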
